A study of Mus musculus with 5 samples.

Results

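Ferritin is the shell that cells use to store iron, and it is built from heavy chains (gene Fth1) and light chains (gene Ftl1). The 7 genes described here were Fth1, Ftl1, the light chain copies Ftl2-ps and Ftl1-ps1, and 3 genes of iron transport, Tfrc, Slc40a1 and Slc11a2, of 54232 genes in the table. They were chosen on measured values: Ftl2-ps was next to absent in the WT samples and near 900 normalized counts in the EID samples, and its parent gene and the iron genes were set beside it. The values of Ftl2-ps are therefore given as a description with no test. All 7 genes reached 5 normalized counts in at least 1 sample, the minimum for testing, Ftl2-ps through the EID samples alone.

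RNA of primary myoblasts from the leg muscles of mice was sequenced in 3 WT samples and 2 EID samples. EID mice carry a knock-in in Elmo2 that replaces 1 residue in the inhibitory domain of ELMO2 and favours the open form of this regulator of RAC signalling, in every cell of the body. According to the paper, the EID mice whose myoblasts were sequenced were homozygous for it. WT cells carry the unchanged gene, and the mice of the colony were of mixed C57BL6 and 129SV background. All samples were isolated with magnetic beads (a satellite cell kit and anti-integrin beads), cultured, and kept for 72 h in low horse serum to differentiate, so none was an undifferentiated culture. The comparison asks which transcripts differ in EID myoblasts.

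Ferritin heavy chain has the ferroxidase activity that loads iron into the shell, and light chain helps the iron core to form. Both messenger RNAs carry an iron-responsive element (IRE), a short hairpin in the 5′ untranslated region to which iron regulatory proteins bind when iron is low and block translation. The same hairpin in the 3′ untranslated region of Tfrc, which encodes the transferrin receptor that brings iron into the cell, protects that messenger from decay. Slc11a2 encodes the transporter DMT1 that moves iron out of endosomes, and Slc40a1 encodes ferroportin, the exporter of iron. Messenger RNAs as abundant as those of ferritin have often been copied back into the genome as processed pseudogenes, which lack introns.

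The light chain copies nearest to Ftl1, Ftl2-ps among them, can be told from it by few bases. Ftl2-ps (ENSMUSG00000082062, GRCm38 chr4:125504288-125504839, plus strand) differs from the 552 coding bases of Ftl1 (ENSMUSG00000050708, chr7:45457944-45459884, minus strand) at 7 positions, counted from 1 at the first base of the start codon. These are A307C, T354C, G366C, A401T, T402C, G468A and G504A, with the base of Ftl1 first. The reading frame of Ftl2-ps is open over the whole coding length, and 4 of the 7 substitutions leave the amino acid as it is in Ftl1. Ftl1-ps2, a further copy with more reads in EID samples, shares 5 of these 7 substitutions.

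The last 2 differences of Ftl2-ps fall in coding bases 456 to 515, shown here, with the bases that differ from Ftl1 in capitals, because they are also the only differences of Ftl1-ps1 from Ftl1.
Ftl1: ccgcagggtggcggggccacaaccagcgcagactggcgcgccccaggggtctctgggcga
Ftl2-ps: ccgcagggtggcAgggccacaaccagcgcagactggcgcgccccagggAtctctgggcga

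In the GENCODE M21 annotation this stretch lies at chr7:45458144-45458203 (minus strand, exon 4 of 4) for Ftl1 and at chr4:125504743-125504802 (plus strand) for Ftl2-ps. Of the 19 light chain copies that blastn found among the annotated transcripts, 19 carry G504A, 16 carry G468A, 17 carry A401T, 17 carry T402C, and 13 carry A307C. T354C is shared by Ftl2-ps and 1 other copy, and G366C was found in Ftl2-ps alone among these copies. A base that many copies share does not assign a read to any one of them.

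How often a read can be assigned was measured on the transcripts themselves, by cutting each into all windows of 50 bases, the length of 1 read of a pair. Of the 503 windows of Ftl2-ps, 62 (12.3%) occur in no other annotated gene, and 273 occur unchanged in Ftl1. For Ftl1 the share was 9.4% (86 of 919 windows) and for Ftl1-ps1 8.0%, against 23.1% for Gm15590, 44.2% for Ftl1-ps2 and 51.6% for Gm12164. Among fragments of 300 bases, 24.5% of those of Ftl2-ps and 12.9% of those of Ftl1 have at least 1 end that occurs in no other gene. The split of light chain reads between Ftl1, Ftl2-ps and Ftl1-ps1 is for this reason uncertain, and the counts of these genes are set beside their sum below.

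**Figure D1:**
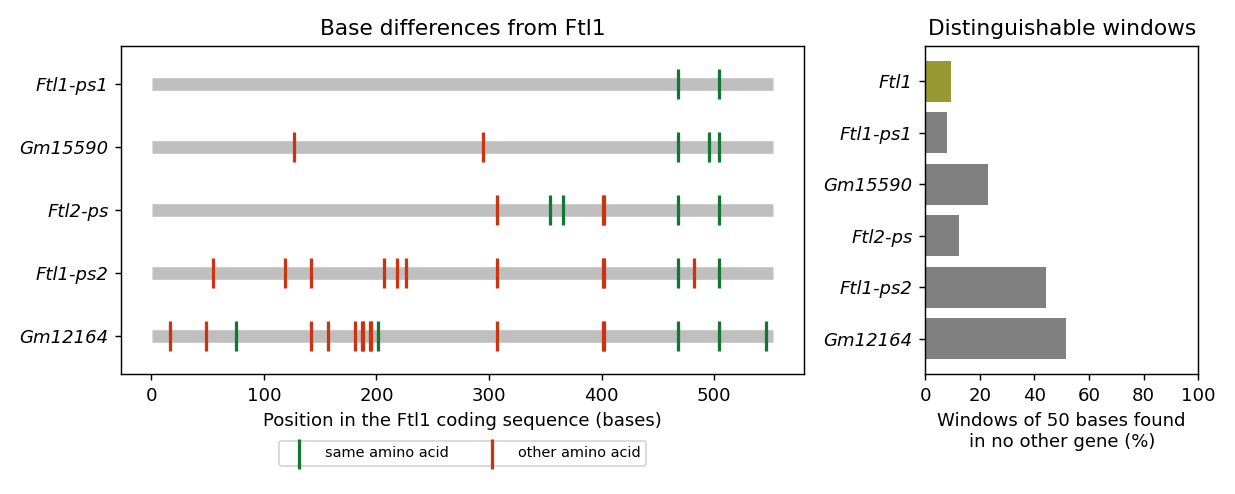
Left, positions of single-base differences from the Ftl1 coding sequence (x axis, bases from the start codon) in 5 light chain copies, coloured by whether the codon keeps its amino acid. Right, percent of 50-base windows of each transcript found in no other annotated gene, which is 12.3% for Ftl2-ps and 9.4% for Ftl1.

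Library totals were between 35021856 and 49381544 reads, and 3 reads, the limit that a count of 0 allows, correspond to 2.65 to 3.73 normalized counts. Elmo2 had 1642, 1539 and 1660 normalized counts in WT samples and 1441 and 1327 in EID samples, and such counts do not show the knocked-in codon. The 8 muscle markers were abundant in every sample, with Myog between 47286 and 53544 normalized counts. Summed over 8 endothelial markers, the level was 166 to 861 normalized counts in WT and 2247 and 3506 in EID samples, and 7 of the 8 were higher in both EID samples than in any WT sample (groups were apart, in either direction, for 32.6% of all genes). Of these 8, limma and edgeR called 0 and DESeq2 called 2 (2.23%, 2.25% and 5.56% of all genes), with 6 at an unadjusted p under 0.05 (15.2% of all genes). Summed macrophage markers ranged from 150 to 177 in WT and from 183 to 298 in EID samples, with Fcgr1 at 0 throughout, and summed Schwann cell markers from 104 to 292 and from 285 to 379. Summed fibroblast markers ranged from 164 to 979 in WT and from 376 to 795 in EID samples. Among 7 erythroid markers, 5, the 4 globin genes included, were at 0 in every sample. The part of other cells in any value below was not tested, and in such bulk samples fewer cells of a type and less RNA per cell cannot be told apart.

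Light chain RNA was lower in EID myoblasts at its parent gene. Ftl1 had 13093, 13417 and 13027 normalized counts in WT samples 1 to 3 and 8255 and 9233 in EID samples 1 and 2. Both EID values lay below every WT value, and the WT samples were close together. The means were 13179 ± 208 (SD, n = 3) and 8744 ± 692 (SD, n = 2), a ratio of 0.663. On the log2(normalized count + 1) scale Ftl1 fell by 0.59 (SE 0.07), with an adjusted p of 0.00937 by limma over 18156 genes. It was the only one of the 6 genes tested here to pass. Of all genes tested, 2.23% passed this threshold (1.09% higher and 1.14% lower in EID), by edgeR 2.25% and by DESeq2 5.56%. The adjusted p of Ftl1 was 0.0106 by edgeR's quasi-likelihood test and 1.4e-10 by DESeq2. It was 0.0826 without EID sample 1, 0.0741 without EID sample 2 and 0.0559 without WT sample 1, and the difference then lay between -0.67 and -0.51.

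Ftl2-ps went the other way. It had 1.77, 0 and 1.24 normalized counts in WT samples (2, 0 and 1 reads) and 894 and 927 in EID samples (1000 and 1034 reads). Every WT library was within the limit that a count of 0 allows, and both EID libraries held about 1000 reads. By reads pooled within each group and scaled for depth, the ratio of EID to WT was 858. It rests on 3 reads in the WT samples together. Next to the parent gene, Ftl2-ps was small: it had 10.8 and 10.04 counts for each 100 of Ftl1 in EID samples 1 and 2.

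**Figure D2:**
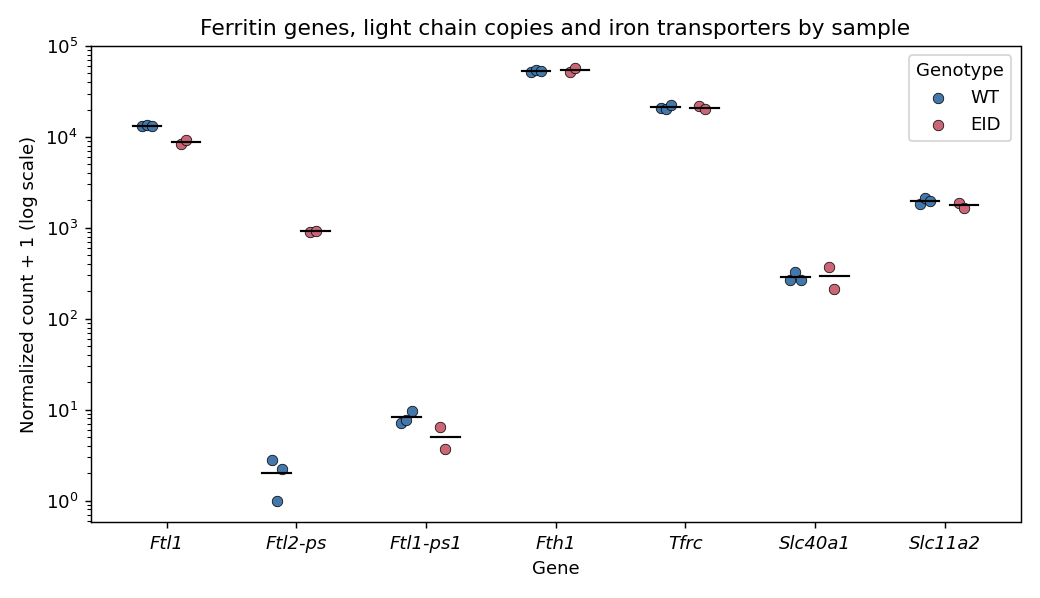
Normalized count + 1 (log scale) of 7 genes in 3 WT (blue) and 2 EID (red) samples, with 1 point per sample and a line at the group mean. Ftl1 is lower in both EID samples, Ftl2-ps is at 1.77 or less in WT and at 894 or more in EID samples, and Fth1, Tfrc, Slc40a1 and Slc11a2 overlap between the groups.

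The gain of Ftl2-ps was smaller than the difference at Ftl1. Between group means Ftl2-ps was higher by 910 normalized counts in EID, which is 20.5% of the 4435 by which Ftl1 was lower. Summed over Ftl1 and the 18 copies in the table, light chain RNA came to 13113, 13432 and 13047 normalized counts in WT and 9195 and 10205 in EID samples. The groups did not overlap in this sum either. The difference of the summed level was -0.45 on the log2 scale (pooled SD 0.06). No p-value is given for this sum, because it holds the Ftl2-ps values that chose the set. Leaving out single samples moved the difference between -0.52 and -0.37. Reads that align equally well to several copies are in none of these counts, and the share that can be assigned differs between copies, so the sum still depends on which copies the reads came from.

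Heavy chain RNA overlapped between the groups. Fth1 (chr19:9980598-9985098) had 51764, 53761 and 52921 normalized counts in WT and 51891 and 57830 in EID samples. One EID value lay within the WT range and the other above it. The log2 difference was 0.05 (SE 0.08, adjusted p = 0.806 by limma), and its sign turned under quantile normalization (-0.027) and without EID sample 2 (-0.025). Per kilobase of transcript, the level of Fth1 was 4.12, 4.18 and 4.23 times that of Ftl1 in WT samples and 6.55 and 6.53 times in EID samples. These ratios compare uniquely assigned reads, and 12.9% of Ftl1 fragments have an end of their own beside all 630 fragments of Fth1. With each level divided by that share, a scaling chosen after seeing the data, the ratio was 0.53 to 0.54 in WT and 0.84 in both EID samples, so which chain was higher turned with the scaling. The log2 difference of the ratio between the groups, 0.65, is the same by construction under either. The spread of this ratio of heavy to light chain level within either group was far smaller than the gap between them. The exact two-sided permutation p was 0.1, the smallest that 3 against 2 samples allow. With all light chain copies added to Ftl1 the ratio was 4.11 to 4.23 in WT and 5.88 and 5.90 in EID samples.

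**Figure D3:**
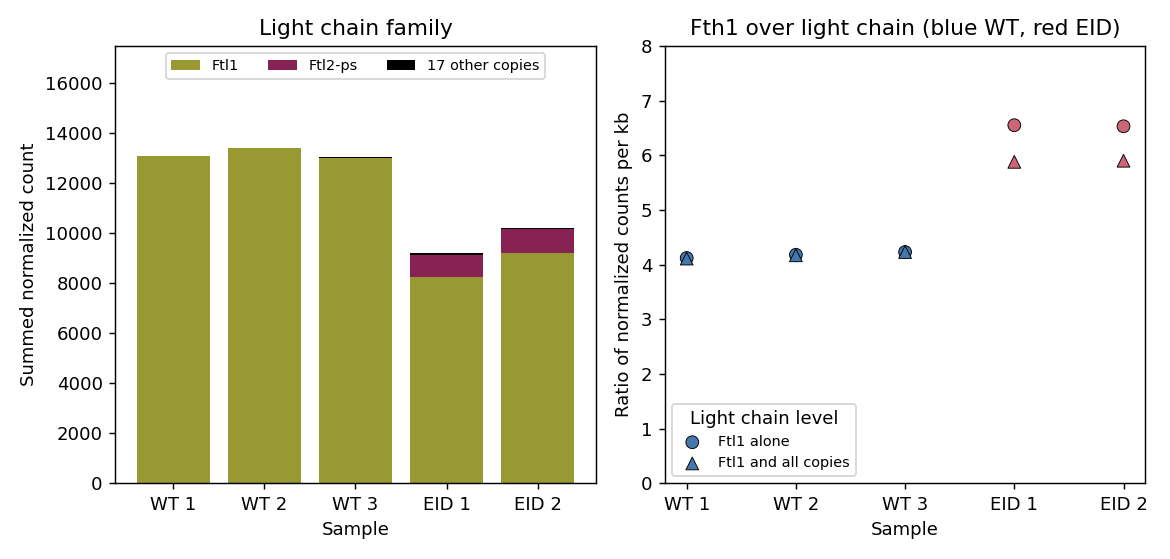
Left, summed normalized counts of Ftl1, Ftl2-ps and 17 other light chain copies in each sample, with the total between 13047 and 13432 in WT and at 9195 and 10205 in EID samples. Right, ratio of Fth1 to light chain level per kilobase by uniquely assigned reads in each sample (blue WT, red EID), for Ftl1 alone (circles, 4.12 to 4.23 in WT and 6.53 to 6.55 in EID) and with all copies added (triangles). The circles fall to between 0.53 and 0.84 when levels are divided by the share of fragments with an end of their own.

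Beside Ftl2-ps, the light chain copies had few uniquely assigned reads. For the nearest copies this does not show silence, as 8.0% of Ftl1-ps1 windows and 23.1% of Gm15590 windows occur in no other gene. Of the 19 light chain genes and copies in the table, 9 were at 0 in every sample and 13 at 3 reads or fewer in every sample, and only 5, Ftl1, Ftl2-ps, Ftl1-ps1, Ftl1-ps2 and Gm12164, reached 5 normalized counts in any sample, Ftl2-ps and Ftl1-ps2 in the EID samples alone. Together the 17 copies other than Ftl2-ps came to 15.7 to 18.7 normalized counts in WT and 44.8 and 45.6 in EID samples. Values this low rest on few reads, so each is given with its counts.

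Ftl1-ps1 (ENSMUSG00000062382, chr13:74399694-74407346), the copy nearest to Ftl1 in sequence, had 6.19, 6.73 and 8.70 normalized counts in WT and 5.37 and 2.69 in EID samples. Both EID values lay below the WT values, the nearer by about 1 read, and the difference did not pass the test (log2 difference -0.75, SE 0.46, adjusted p = 0.504 by limma). Ftl1-ps1 is annotated as protein coding. Of its 889 windows, 675 occur unchanged in Ftl1.

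Ftl1-ps2 (ENSMUSG00000096755, chr10:130592157-130592705) had 0.88, 1.12 and 2.49 normalized counts in WT and 16.1 and 20.6 in EID samples. It had 1, 1 and 2 reads in WT and 18 and 23 in EID samples, a ratio of 13 by pooled reads scaled for depth. Both EID values lay above the WT values, and as the gene reached the minimum for testing through the EID samples alone, no test is given. Gm12164 (chr11:45829319-45829869) had 7.07, 4.49 and 4.97 normalized counts in WT and 17.9 and 13.5 in EID samples, which did not overlap and did not pass the test (log2 difference 1.36, SE 0.40, adjusted p = 0.17 by limma).

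No other ferritin gene reached the minimum for testing. The 3 heavy chain copies of the table stayed below 5 normalized counts in every sample. Mitochondrial ferritin (Ftmt) and 8 of the 9 genes or pseudogenes of the Fthl17 group were at 0 throughout, and the ninth, Fthl17a, reached 4.49 in WT sample 2.

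Ftl2-ps lies inside another gene. Its 552 bases sit in intron 1 of the 16-exon Grik3 (chr4:125490700-125714173), which encodes a kainate-type glutamate receptor subunit, 13342 bases into the intron and on the same strand. Grik3 had 57.4, 51.6 and 36.1 normalized counts in WT and 6.26 and 6.28 in EID samples. The host gene was lower in EID samples, where the copy in its intron was higher. Grik3 fell by 2.74 on the log2 scale (SE 0.32), with an adjusted p of 0.00942 by limma and up to 0.125 when single samples were left out.

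Within 2 Mb of Ftl2-ps, the shares of genes that differed were close to those of all genes. Of the 7 tested genes within 500 kb, Grik3 was the only one that passed the test, which is 14.3% beside 2.23% of all genes. Gnl2, Dnali1, Gm12932, Meaf6 and Zc3h12a had log2 differences between -0.34 and 0.22. Within 2 Mb, 2 of 61 tested genes passed by limma (3.28%) and 2 by edgeR. DESeq2 called 3 (4.92%, beside 5.56% of all genes), and 9 had an unadjusted p under 0.05 (14.8%, beside 15.2% of all genes tested). The second gene to pass by limma was Ndufs5, a subunit gene of respiratory complex I that was named after its values were seen. It had 1353, 1307 and 1413 normalized counts in WT and 138 and 114 in EID samples and fell by 3.43 on the log2 scale (SE 0.11, adjusted p = 5.9e-05 by limma). Around Ftl1, 1 of 66 tested genes within 500 kb passed by limma (1.52%) and 1 by edgeR. By DESeq2 it was 3 (4.55%, beside 5.56% of all genes), and 16 had an unadjusted p under 0.05 (24.2%, beside 15.2% of all genes tested). Around Fth1, 0 of 13 passed by limma, edgeR and DESeq2, with 2 at an unadjusted p under 0.05 (15.4%).

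**Figure D4:**
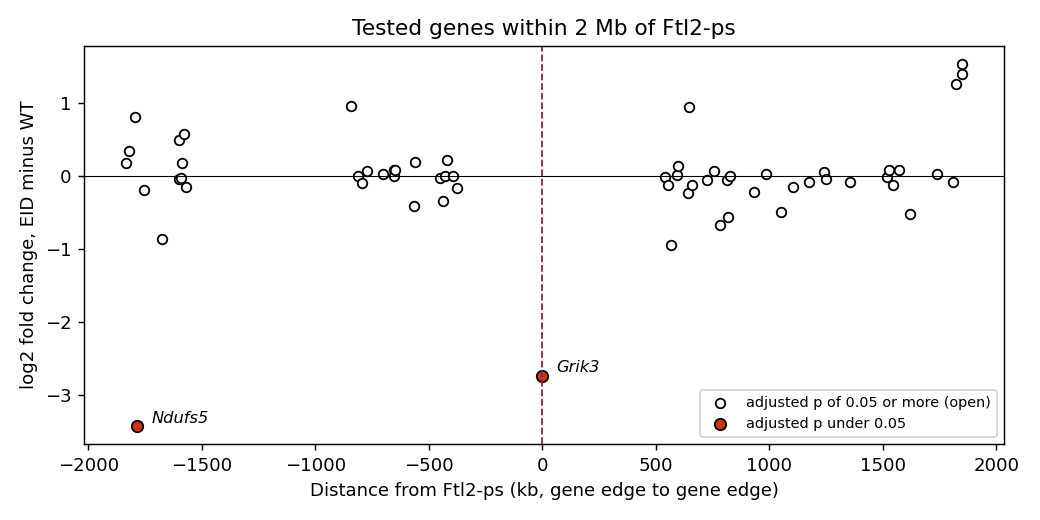
Log2 fold change (EID minus WT) of 61 tested genes against their distance from Ftl2-ps in kilobases, with genes of adjusted p under 0.05 in red. Grik3, at distance 0, fell by 2.74, Ndufs5 fell by 3.43, and the median of all 61 was -0.02.

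The genes whose pattern over the 5 samples came closest to that of Ftl2-ps included other processed pseudogenes. By Euclidean distance of log2(normalized count + 1), the nearest was Rps13-ps1 (distance 2.14), a copy of a ribosomal protein gene, with 0.88, 1.12 and 0 in WT and 460 and 496 normalized counts in EID samples. Eif3s6-ps2 (2.94), the long noncoding RNA gene Gm7292 (3.22), the protein-coding Angptl7 (3.38) and the pseudogene Gm8276 (3.56) followed. At most 3 reads in each WT library together with 100 or more normalized counts in each EID library were found for 7 genes, Ftl2-ps included. Of these, 4, again with Ftl2-ps, are pseudogenes. Pseudogenes were 6.78% of all genes tested, but the 7 were picked by the pattern that chose Ftl2-ps. No excess of pseudogenes can be read from these counts. The opposite pattern was found for 0 genes.

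RNA of the main receptor of iron uptake overlapped between the groups. Tfrc (chr16:32608920-32632794) had 20866, 20440 and 22561 normalized counts in WT and 21634 and 20454 in EID samples. The ranges overlapped, and the log2 difference was -0.02 (SE 0.07, adjusted p = 0.944 by limma). Slc11a2 (chr15:100387898-100425072) had 1831, 2110 and 1973 in WT and 1889 and 1640 in EID samples, with a log2 difference of -0.16 (SE 0.09, adjusted p = 0.481). Its EID mean was lower, but 1 of the EID values lay within the WT range.

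Slc40a1 (chr1:45908068-45926523), the exporter gene, had 263, 323 and 265 normalized counts in WT and 368 and 212 in EID samples. The EID samples were the highest and the lowest of the 5, and the log2 difference was -0.01 (SE 0.24, adjusted p = 0.987 by limma). Its sign therefore depended on which samples were kept, from -0.41 to 0.38.

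The levels of the ferritin and transport genes were compared by uniquely assigned reads per kilobase of transcript, on which the places of Ftl1 and Ftl2-ps depend. In WT samples the means were 56852 normalized counts per kb for Fth1, 13615 for Ftl1, 4353 for Tfrc, 652 for Slc11a2 and 84.2 for Slc40a1. In EID samples they were 59053, 9033, 4303, 583 and 86.2. Ftl2-ps, at 1.82 per kb in WT and 1650 per kb in EID samples, was below Slc40a1 in WT samples by these reads, with 24.5% of its fragments having an end of their own. In EID samples its place turned with the scaling. It lay between Tfrc and Slc11a2 as counted and, at 6732 per kb with levels divided by that share, above Tfrc, whose fragments all have such an end. Ftl1, divided in the same way, came to 105910 per kb in WT and 70267 per kb in EID samples, above Fth1 in both.

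Which of these messengers hold the IRE in the annotated transcripts was read from their sequences. The motif searched was a C, then 5 bases, the loop CAGTGN and 5 bases that pair with the first 5, on the transcript strand. It was found in the 5′ untranslated regions of Ftl1, Fth1 and Slc40a1. Counts were lower in EID samples for Ftl1 and overlapped between the groups for Fth1 and Slc40a1. The 3 hairpins are shown with the loop in capitals because genes of both kinds hold the motif.
Ftl1: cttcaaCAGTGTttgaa
Fth1: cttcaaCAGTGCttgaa
Slc40a1: cagctaCAGTGTtagct

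Tfrc held 4 matches in its 3′ untranslated region and Slc11a2 held none in the transcript examined. Of all genes, 0.111% held the motif in the 5′ untranslated region (21 of 18986) and 0.511% in the 3′ untranslated region (100 of 19587). The annotated transcript of Ftl2-ps covers coding sequence only, so this motif has no place in it. Among the 18 light chain copies in the table, a match was found in a transcript of Ftl1-ps1 alone.

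Around the ferritin genes, the share of iron genes that passed the test was close to that of all genes. Of 69 genes in 8 lists, 63 were tested, 1 fell (Ftl1) and 1 rose (Alad), which is 3.17% beside 2.23% of all genes tested. Group ranges were apart in 17 of the 63 (27%), beside 32.6% of all genes. The median log2 difference was 0.02 over the lists and 0.01 over all genes tested, and 54 of the 63 genes (85.7%) lay within 0.3 of no change, beside 67.4% of all genes. At an unadjusted p under 0.05 there were 9 genes (14.3%, beside 15.2% of all), and DESeq2 called 5 (7.94%, beside 5.56% of all).

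Among iron uptake genes 0 of 8 tested passed by limma, edgeR or DESeq2 (1 at an unadjusted p under 0.05), with a median log2 difference of -0.23. Tfrc and Slc39a14, a transporter of iron not bound to transferrin, had the highest levels per kilobase, and Slc39a14 had a log2 difference of -0.10. Steap2 and Steap3, reductases of iron in endosomes, had values below every WT value in both EID samples without passing the test (log2 differences of -0.45 and -0.30). Mcoln1 of the same list lay above every WT value in both EID samples (log2 difference 0.06). Groups were apart, in either direction, for 32.6% of all genes. Among the 4 export genes 0 passed by any of the 3 tools, 0 had an unadjusted p under 0.05, and the ferroxidase gene Hephl1 was the most abundant (log2 difference 0.23, SE 0.25). Hephl1 had 2412 normalized counts in WT sample 3 and 4177 to 4452 in the other samples.

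The regulators of ferritin showed small differences. Aco1 and Ireb2, which encode the iron regulatory proteins, had log2 differences of 0.02 each, as had Fbxl5, whose product targets the second of them for degradation in iron-rich cells. Ncoa4, the receptor that carries ferritin to the lysosome, had 656, 611 and 706 normalized counts in WT and 614 and 528 in EID samples (log2 difference -0.20, SE 0.11, adjusted p = 0.433 by limma). The iron chaperone genes Pcbp1 and Pcbp2 had the highest levels per kilobase of their list and log2 differences of -0.04 and 0.09. Of the 8 genes of this list 0 passed by limma or edgeR, 1 (Herc2, a ubiquitin ligase, log2 difference 0.26) by DESeq2, and 1 had an unadjusted p under 0.05.

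In heme metabolism, Alad, the enzyme of the second step of heme synthesis, rose. It had 308, 320 and 357 normalized counts in WT and 618 and 554 in EID samples, with no overlap between the groups. The means were 328 ± 25.3 (SD, n = 3) and 586 ± 45.2 (SD, n = 2), and the log2 difference was 0.83 (SE 0.11, adjusted p = 0.0178 by limma). The adjusted p was 0.0162 by edgeR and reached 0.14 when single samples were left out. Blvrb, a biliverdin reductase, had 315, 304 and 321 in WT and 436 and 604 in EID samples, a log2 difference of 0.71 (SE 0.15) that did not pass by limma (adjusted p = 0.071) and passed by DESeq2 (adjusted p = 0.00277). The other 13 tested genes of the list lay between -0.14 and 0.16, among them Fech and Alas1, the last and first enzymes of heme synthesis and the most abundant per kilobase (-0.07 and -0.14), and the heme oxygenase Hmox1 (0.09).

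Of the systemic hepcidin axis, 0 of 4 tested genes passed by limma or edgeR and 1, Bmp6, by DESeq2, with 1 at an unadjusted p under 0.05. Hamp, the hepcidin gene itself, was at 1.12 normalized counts in WT sample 2 and at 0 in the others. Hfe2, the gene of the BMP co-receptor hemojuvelin, had 16883 to 18904 normalized counts in all 5 samples, and the log2 differences of Hfe2 and Hfe were 0.01 and -0.00. Bmp6, a ligand that raises hepcidin in liver, had 22.1, 5.61 and 42.3 normalized counts in WT and 91.2 and 130 in EID samples. These did not overlap, and the log2 difference of 2.55 (SE 0.73) did not pass limma's test (adjusted p = 0.164). The endothelial marker sums given above were ordered among the samples in much the same way, lowest in WT sample 2 and highest in EID sample 2, and their part in this value was not tested.

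In the lists of mitochondrial iron and of Nrf2, 0 of 12 and 0 of 10 tested genes passed by limma, edgeR or DESeq2, with 2 and 1 at an unadjusted p under 0.05. Iscu and Bola3, which take part in assembling iron-sulfur clusters, were the most abundant per kilobase of the first and had log2 differences of 0.12 and 0.08. Txnrd1 and Nfe2l2 were those of the second (-0.03 and -0.14). Nfe2l2 encodes Nrf2, which activates both ferritin genes under oxidative stress, and the medians of the lists were 0.05 and -0.02.

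**Figure D5:**
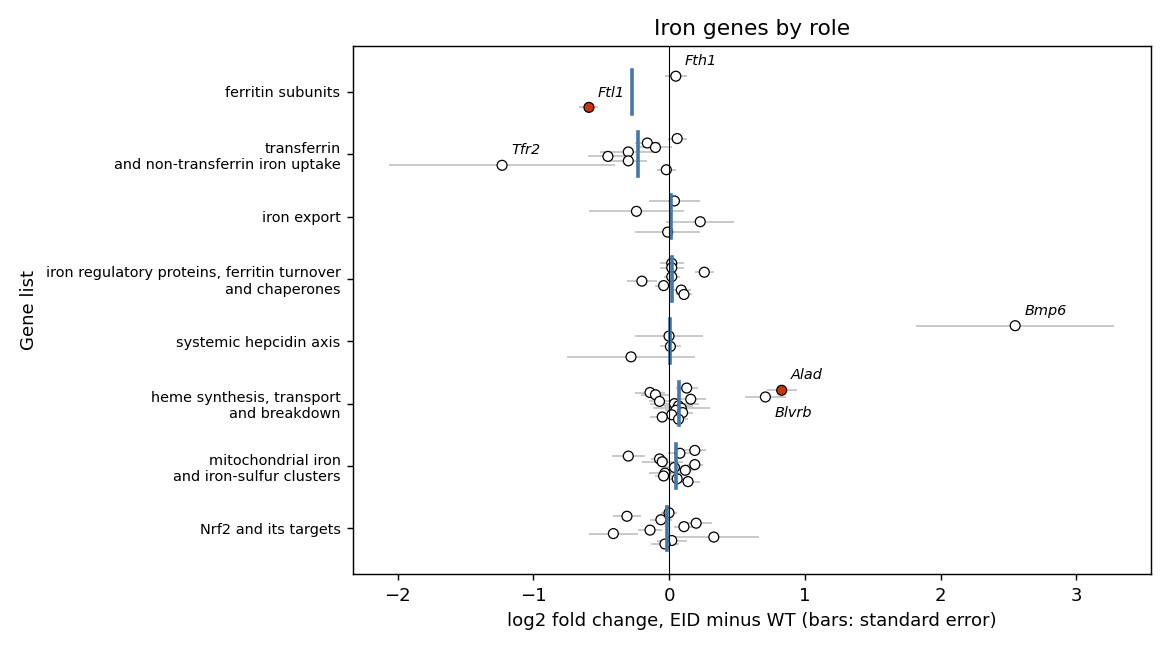
Log2 fold change (EID minus WT, x axis) with its standard error for 63 tested iron genes in 8 lists by role, with the list median as a blue line and genes of adjusted p under 0.05 in red. Ftl1 (-0.59) and Alad (0.83) are the red points, and Bmp6 (2.55) and Tfr2 (-1.23) lie far from 0 with wide errors.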

How the data were processed

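RNA-seq of 3 WT and 2 EID myoblast samples was used. According to the submitters' notes and the study's methods, the authors aligned reads with STAR 2.5.1b to GRCm38, counted unique reads per gene with featureCounts 1.4.6 and divided counts by DESeq2 1.34.0 size factors. The deposited values (unit signal: normalized counts) were whole multiples of 1 read for 100% of positive values, within 0.01 read, so reads were recovered. Groups came from the genotype labels. The labels do not state that each sample is a separate animal, so p-values measure the spread between these samples. No columns were left unmapped, and 54165 of 54232 identifiers matched GENCODE M21.

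Genes with 5 or more normalized counts in at least 1 sample were tested with limma 3.58.1 (trend) on log2(value + 1) across all genes, with p-values adjusted by Benjamini-Hochberg and called below 0.05. A fold change on this scale understates the change of low genes. Alternatives were edgeR 4.0.16, DESeq2 1.42.0, other pseudocounts, filters, scalings, a replicate block and leaving out each sample. Fits were tested on simulated data. Copies were found with blastn 2.17.0 against GENCODE transcripts. The members and lists were chosen with earlier results of these data known. Genes named were the members, tested ferritin copies, iron genes that passed or had the 2 highest levels per kilobase of a list, the 5 nearest patterns to Ftl2-ps, its host and its tested neighbours within 500 kb, and others named as examples after their values were seen. One neighbouring gene and a stretch of the light chain sequence are not reported here.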

Additional observations from a re-analysis of the deposited data

How the results depend on the processing

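Ftl1 was lower in EID under all 16 alternatives (log2 difference -0.68 to -0.51), and its adjusted p passed 0.05 in 12 of them, the exceptions being limma without a trend and 3 of the 5 fits with a sample left out. Genes called numbered 404, and 961 by DESeq2, 144 by limma without a trend, 155 with no filter on low values, and 34 to 335 with single samples left out. Iron genes called numbered 2, and 5 by DESeq2, 0 without a trend, 1 with no filter, and 0 to 2 with single samples left out. The labels share replicate numbers 1 and 2, which do not pair the samples (correlation of replicate differences -0.24 across 13769 genes). With the replicate block 224 genes and 1 iron gene, Ftl1, were called. With the numbers crossed, chosen after seeing the data, 1041 and 5 were called. The light chain sum kept its direction in its 9 alternatives (2 pseudocounts, equal totals, Ftl1 and Ftl2-ps only, and each sample left out), between -0.52 and -0.37. Signs turned for genes near no change: Fth1 was at -0.027 under quantile normalization and between -0.025 and 0.131 with single samples left out, Tfrc at 0.027 with the block and the crossed block and between -0.056 and 0.027 with samples left out, and Slc40a1 at 0.034 by DESeq2, 0.028 by edgeR and between -0.409 and 0.383 with samples left out. Over the 10 single genes tested, 132 values kept direction and call, 14 lost the call, 2 gained it and 10 turned sign. Ftl2-ps, described without a test, was at 7.26 with a pseudocount of 5 and at 9.75 by DESeq2. The cause was not tested. Depth set a WT limit of up to 3.73 normalized counts for low copies. Their counts also depend on the share of reads that can be assigned.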
